A study of Rattus norvegicus with 12 samples.

Results

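Genes of tooth-attached and oral epithelium were followed in bone taken from around dental mini implants in rats: Fdcsp, Odam, Amtn, Krt5, Krt14, Krt17, Cdh1 and Epcam. These 8 genes were picked by symbol, and 7 of them have a row among the 33801 genes of the expression table, with no row named Krt14. Wild-type (WT) rats received implants at the maxillary first molar site, made either of titanium (cpTi) or of the alloy Zr58Cu25Al14Nb3, called Nb3 alloy here. The implants were loaded cyclically for 2 weeks or stayed static, which gave 4 groups of 3 samples, a loaded and a non-loaded group for each material. Each sample was polyadenylated RNA from a 4 mm diameter of bone around the implant, and the labels name no age, sex or strain. The labels do not state whether samples with different replicate numbers came from different animals, so the p-values speak only to the spread among the samples at hand. The genes were chosen with the high and low values of the loaded Nb3 alloy samples already known. Differences that involve that group are therefore given as values with their standard error (SE) and no p.

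The junctional epithelium is the collar of epithelium that fastens the gum to the tooth, and a similar collar forms around implants. Its cells sit on a basal lamina facing the tooth and secrete a small set of calcium-binding and proline-rich proteins, among them odontogenic ameloblast-associated protein (Odam), amelotin (Amtn) and follicular dendritic cell secreted protein (Fdcsp). The gum epithelium next to it is stratified, with a basal layer that carries keratin 5 and keratin 14, and keratin 17 appears in basal cells under stress or injury. E-cadherin (Cdh1) and the epithelial cell adhesion molecule (Epcam) join epithelial cells to each other in many tissues, Epcam mostly in simple epithelia and glands.

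Fdcsp, Odam and Amtn lie on the same strand of 1 stretch of chromosome 14, among genes for secreted calcium-binding and salivary proteins, so the bases just upstream of their starts are shown beside those of Krt5 and Epcam for comparison. The sequences are the 150 bases before each gene's start in RefSeq (build GRCr8), written 5′ to 3′ on the gene's strand. Capitals mark matches to 3 motifs searched on both strands: the TATA box letters TATAAA, the AP-1 letters TGANTCA, and the E-box letters CACCTG.
Fdcsp: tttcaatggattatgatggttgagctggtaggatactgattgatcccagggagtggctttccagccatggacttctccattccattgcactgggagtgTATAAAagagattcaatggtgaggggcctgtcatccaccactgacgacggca
Odam: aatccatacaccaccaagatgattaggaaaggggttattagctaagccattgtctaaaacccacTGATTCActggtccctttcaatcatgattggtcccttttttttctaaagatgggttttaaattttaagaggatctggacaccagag
Amtn: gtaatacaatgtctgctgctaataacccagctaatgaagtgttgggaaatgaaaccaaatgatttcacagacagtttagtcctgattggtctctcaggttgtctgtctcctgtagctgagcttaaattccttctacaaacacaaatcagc
Krt5: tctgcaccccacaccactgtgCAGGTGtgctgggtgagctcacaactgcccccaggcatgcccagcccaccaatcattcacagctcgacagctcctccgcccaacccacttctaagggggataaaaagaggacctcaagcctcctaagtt
Epcam: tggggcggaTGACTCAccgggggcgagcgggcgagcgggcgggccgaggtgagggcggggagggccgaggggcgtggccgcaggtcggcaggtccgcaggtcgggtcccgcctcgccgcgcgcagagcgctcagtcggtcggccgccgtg
The windows are chr14:20453228-20453377 for Fdcsp, chr14:20481761-20481910 for Odam, chr14:19945224-19945373 for Amtn, chr7:134730570-134730719 for Krt5 and chr6:12649679-12649828 for Epcam, all on the minus strand. Fdcsp holds TATAAA, beginning 52 bases before the start, as do 8.0% of 33469 RefSeq windows of this length. Odam and Epcam each hold TGANTCA, beginning 86 and 141 bases before the start, as do 3.69% of the windows. Krt5 holds the E-box letters on the other strand, 129 bases before the start, as do 9.56% of the windows, and the Amtn window holds none of the 3 motifs. A match is a description of letters and not a binding site. Of the 8 genes, Krt14, Krt17 and Cdh1 had no entry among the promoter sequences.

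Positions of the genes themselves are given as the deposited table has them, and its genome build is not given in the sources used here. Fdcsp is at chromosome 14, 20169691 to 20173983, and Odam at 20193302 to 20202517, with 19318 bases between them. Amtn is at 19648625 to 19661181 of the same chromosome. Krt5 is at chromosome 7, 132846136 to 132851850, Krt17 at chromosome 10, 85178675 to 85183392, and Epcam at chromosome 6, 6878237 to 6896127. These 6 genes are on the minus strand, and Cdh1 is on the plus strand of chromosome 19, 34492371 to 34561775.

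Levels are in FPKM, the number of fragments per kilobase of gene scaled by depth. The samples held 12911912 to 22308428 reads on genes. Mitochondrial reads made up 11.3% to 24.3% of the reads in the loaded Nb3 alloy samples and 4.31% to 6.86% in the other 9 samples. The labelled tissue carried its markers in every sample: Col1a1, the main collagen of bone, stood at 1373 to 9367 FPKM, and Bglap (osteocalcin) at 898 to 5146 FPKM. As bulk samples, they cannot tell fewer cells of a type from less RNA per cell.

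**Figure D1:**
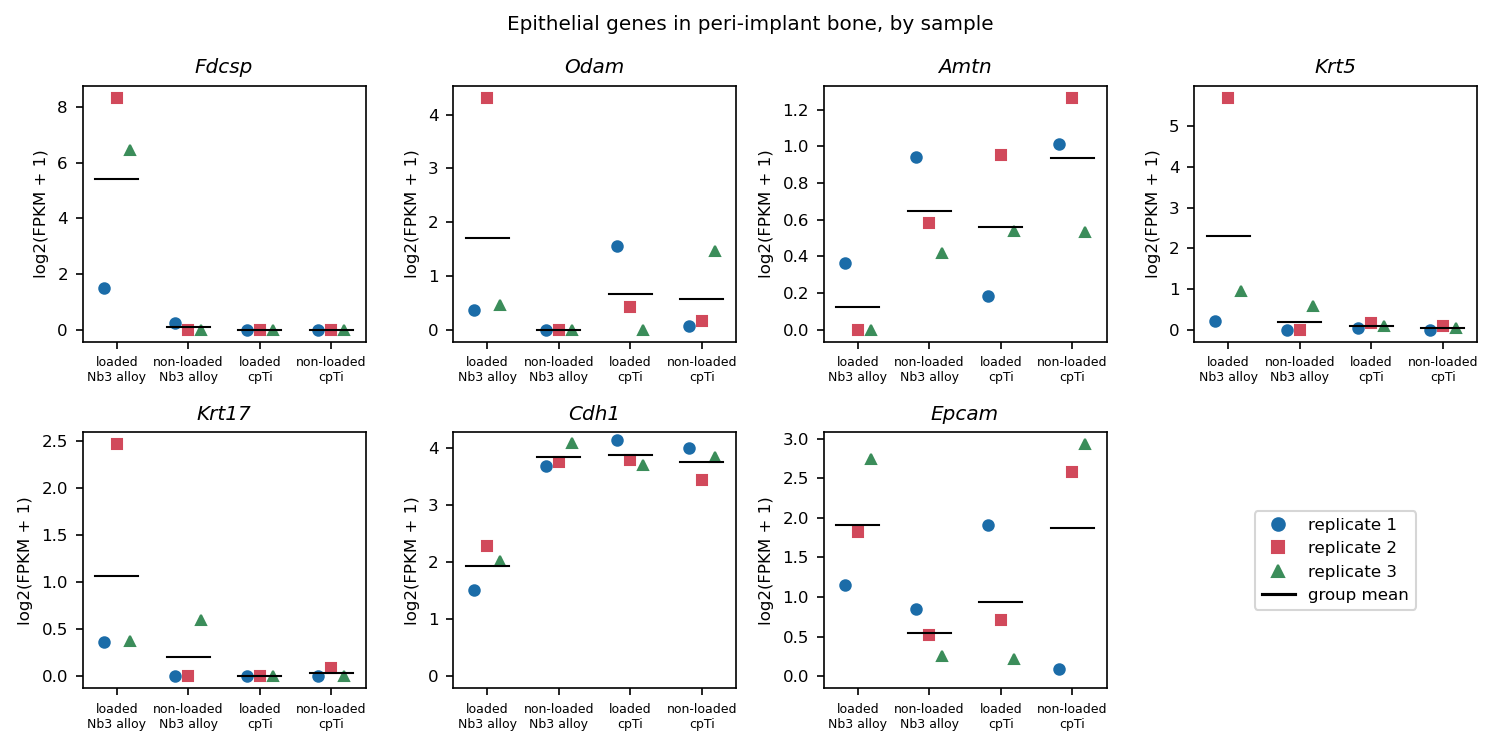
FPKM of the 7 genes on a log2(FPKM + 1) scale, 1 panel per gene; points are samples (colour and shape give the replicate number), bars are the means of 3 samples per group on that scale. Fdcsp, Odam, Krt5 and Krt17 are highest in loaded Nb3 alloy replicate 2, Cdh1 is lowest in the 3 loaded Nb3 alloy samples, and Epcam is high in samples of several groups.

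The 7 genes did not follow 1 pattern, as the plot of the 7 genes by sample shows. Fdcsp stood apart in all 3 loaded Nb3 alloy samples, Odam, Krt5 and Krt17 mainly in 1 of them, and Epcam in samples of 3 groups. Cdh1 and Amtn were lower in that group. The name junctional and oral epithelium therefore fitted the combined rows only in part, and they are described here gene by gene.

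Among the secreted proteins, Fdcsp, a small peptide secreted by follicular dendritic cells and junctional epithelium, had the widest range. It reached 1.8, 325 and 88.0 FPKM in replicates 1, 2 and 3 of the loaded Nb3 alloy group, from 10, 1979 and 514 reads. Outside that group it had 1 read, 0.192 FPKM in non-loaded Nb3 alloy replicate 1, and none in the other 8 samples. A count of 0 reads allows 3 reads, which is 0.493 to 0.662 FPKM in these samples. The groups did not overlap, although the loaded Nb3 alloy samples spanned 1.8 to 325 FPKM and their mean of 138 carried an SD of 167 (n = 3). The share of all tested genes without overlap was not counted. On the log2(FPKM + 1) scale the loaded Nb3 alloy group was 5.35 above the non-loaded alloy group and 5.44 above the loaded cpTi group (SE 1.26). With a pseudocount of 0.1 FPKM or by limma-voom the first was 8.05 or 8.19 and the second 8.57 or 8.72, so its size depends on how 0 is treated. The summed level of 4 follicular dendritic cell genes was 48.8 to 419 FPKM in these samples and 4.64 to 13.95 FPKM in the other 9. Most of it was Cxcl13, a chemokine of B-cell follicles, which stood at 418, 407 and 48.4 FPKM in the loaded Nb3 alloy samples. Cr2, which defines follicular dendritic cells and B cells, stood at 0.0619 to 0.356 FPKM there and at 1.53 to 3.68 FPKM in the other 9 samples. The part of such cells in the Fdcsp reads was not tested.

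Odam, the protein that junctional epithelium lays down at its attachment, was carried by 1 sample of the loaded Nb3 alloy group. Its values there were 0.288, 18.9 and 0.366 FPKM, from 6, 431 and 8 reads. In loaded cpTi it stood at 1.92, 0.343 and 0 FPKM, and in non-loaded cpTi at 0.0503, 0.118 and 1.77 FPKM. No read of it was counted in the 3 non-loaded Nb3 alloy samples. The groups overlapped, since loaded cpTi replicate 1 and non-loaded cpTi replicate 3 both exceeded the loaded Nb3 alloy replicates 1 and 3. The loaded Nb3 alloy group was 1.71 above the non-loaded alloy group and 1.05 above the loaded cpTi group (log2, SE 0.89), differences that rest on replicate 2. With a pseudocount of 0.1 FPKM they were 3.91 and 1.75, and by limma-voom 5.75 and 2.51.

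Amtn, the third secreted protein and a neighbour of the other two, did not share their pattern. It was 0.286, 0 and 0 FPKM in loaded Nb3 alloy replicates 1 to 3, and 0.135 to 1.40 FPKM in the 9 other samples, each of which held at least 2 reads. Loaded cpTi replicate 1 (2 reads, 0.135 FPKM) fell below loaded Nb3 alloy replicate 1, so the groups overlapped by that sample. Against the non-loaded alloy samples, at 0.917, 0.497 and 0.336 FPKM, the difference was -0.53 (log2, SE 0.25), and against loaded cpTi it was -0.44. At 20 reads or fewer per sample, these values sit close to the limit of detection.

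Among the structural genes, Krt5, the keratin of basal cells of stratified epithelium, was almost wholly the reads of 1 sample. In the loaded Nb3 alloy group it stood at 0.168, 51.1 and 0.931 FPKM, from 6, 2002 and 35 reads. The next highest of the 9 other samples was non-loaded Nb3 alloy replicate 3, at 0.492 FPKM, and the rest lay between 0 and 0.114 FPKM. Loaded Nb3 alloy replicate 2 held 96.8% of all Krt5 reads and stood 54.9-fold above the next sample. With that sample included, the group was 2.10 above the non-loaded alloy group (log2, SE 1.08).

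Krt17, a keratin of stressed and appendage epithelium, was likewise highest in that sample. It stood at 0.283, 4.54 and 0.294 FPKM in the loaded Nb3 alloy group, and loaded Nb3 alloy replicate 2 gave 193 of its reads. Non-loaded Nb3 alloy replicate 3 held 0.514 FPKM, more than the loaded Nb3 alloy replicates 1 and 3, and 1 sample of non-loaded cpTi held 0.0632 FPKM. The other 7 samples held none. Of the 7 genes, 4 passed the filter of 1 FPKM in at least 3 samples: Fdcsp, Odam, Cdh1 and Epcam. Amtn, Krt5 and Krt17 did not reach it, with 2, 1 and 1 samples.

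Krt14 could not be followed by symbol. The table has a row named Krt15 that its own description calls keratin 14; it spans 104998 bases of chromosome 10, overlaps Krt9 and lies beside Krt17. It stood at 0.114, 14.1 and 0.929 FPKM in loaded Nb3 alloy replicates 1 to 3 and at 0.0238 to 0.604 FPKM elsewhere. Which keratin its reads came from cannot be told from the table, and near-identical keratins may share reads.

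Cdh1 was the one of the 7 whose loaded Nb3 alloy samples all sat below every other sample. How many of all tested genes separate in this way was not counted. Cdh1 was 1.85, 3.85 and 3.03 FPKM in loaded Nb3 alloy (163, 371 and 280 reads). In non-loaded Nb3 alloy it stood at 11.8, 12.5 and 16.0 FPKM, in loaded cpTi at 16.6, 12.9 and 11.9 FPKM, and in non-loaded cpTi at 15.0, 9.77 and 13.4 FPKM. The group mean of 2.91 ± 1.01 FPKM (SD, n = 3) was 1.90 below non-loaded alloy and 1.94 below loaded cpTi on the log2 scale (SE 0.22). On the FPKM scale, non-loaded alloy averaged 4.60-fold and loaded cpTi 4.74-fold the loaded Nb3 alloy mean. E-cadherin is best known from epithelia, and in human marrow it also marks early erythroid cells. Beside Cdh1, 7 of 7 tested erythroid genes, among them Slc4a1 and Klf1, were lower under loading with the alloy, where 45.8% of all tested genes were called, 20.7% higher and 25.2% lower. Their summed level was 32.1 to 57.0 FPKM in the loaded Nb3 alloy samples and 953 to 2160 FPKM in the 9 others, as the plot of Cdh1 against the erythroid genes shows. The part of erythroid cells in the Cdh1 values was not tested.

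**Figure D2:**
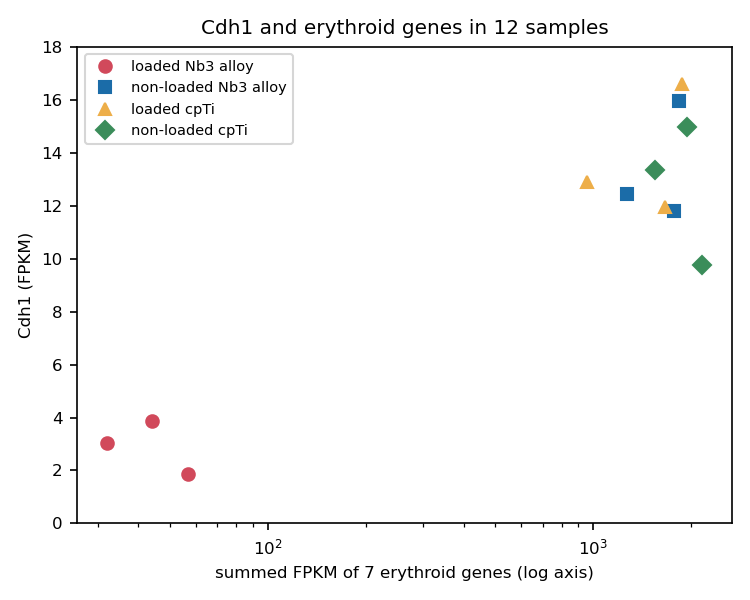
Cdh1 (FPKM, linear axis) against the summed FPKM of 7 erythroid genes (log axis), 1 point per sample, coloured by group. The 3 loaded Nb3 alloy samples lie apart, at 1.85 to 3.85 FPKM of Cdh1 and 32.1 to 57.0 FPKM of erythroid genes, and the other 9 lie at 9.77 FPKM of Cdh1 or more.

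Epcam, the homophilic adhesion molecule of simple epithelium and glands, had high and low samples within the same groups. It stood at 1.23, 2.54 and 5.66 FPKM in loaded Nb3 alloy, 0.795, 0.437 and 0.190 in non-loaded Nb3 alloy, 2.75, 0.628 and 0.159 in loaded cpTi, and 0.0678, 4.96 and 6.65 in non-loaded cpTi. The highest was non-loaded cpTi replicate 3, and the lowest was replicate 1 of the same group. Its difference between loaded and non-loaded alloy was 1.37 (log2, SE 0.70), and all 3 loaded alloy samples lay above all 3 non-loaded ones. The share of all tested genes with such a split was not counted. Between loaded Nb3 alloy and loaded cpTi the Epcam difference was 0.96 (SE 0.70), with overlapping samples. With a pseudocount of 0.1 FPKM these were 2.39 and 1.74, and by limma-voom 2.62 and 2.04. Without loaded Nb3 alloy replicate 3 the second was 0.55, and without loaded cpTi replicate 3 it was 0.60.

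In the comparisons without the loaded Nb3 alloy group, only Cdh1 and Epcam are given with a test. Fdcsp passed the filter through the loaded Nb3 alloy samples alone and had no read in the 6 cpTi samples, so its test says nothing. Odam reached 1 FPKM in 3 samples, among them loaded Nb3 alloy replicate 2. Without that replicate it falls short of the filter, so Odam is given with no test. The limma fit on log2(FPKM + 1) used Benjamini-Hochberg adjustment over 15268 genes. It called 0 of the 2 genes under loading beside cpTi, where 0.00655% of all tested genes were called. It called 0 of the 2 between the alloy and cpTi without loading, where 0% were. Neither had an unadjusted p under 0.05 in either comparison, and limma-voom on the recovered reads also called 0. With the compared groups only, 2 and 1 of the genes passed the filter. Loading beside cpTi left Cdh1 at a difference of 0.12 (log2, SE 0.22, limma adjusted p = 0.940) and Odam at 0.09 (SE 0.89). Epcam stood at -0.93 (SE 0.70, limma adjusted p = 0.828) under loading beside cpTi. It stood at -1.33 (SE 0.70, unadjusted p = 0.0839, limma adjusted p = 1) between the alloy and cpTi without loading. Leaving out non-loaded cpTi replicate 1 gave -1.81 and -2.22, replicate 2 gave -0.57 and -0.98, and replicate 3 gave -0.39 and -0.80. The first was also -1.41 without loaded cpTi replicate 1 and -0.56 without its replicate 3; none of these was called. The intervals behind the SEs of Epcam and Odam are wide, so these values do not show that the groups were alike.

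**Figure D3:**
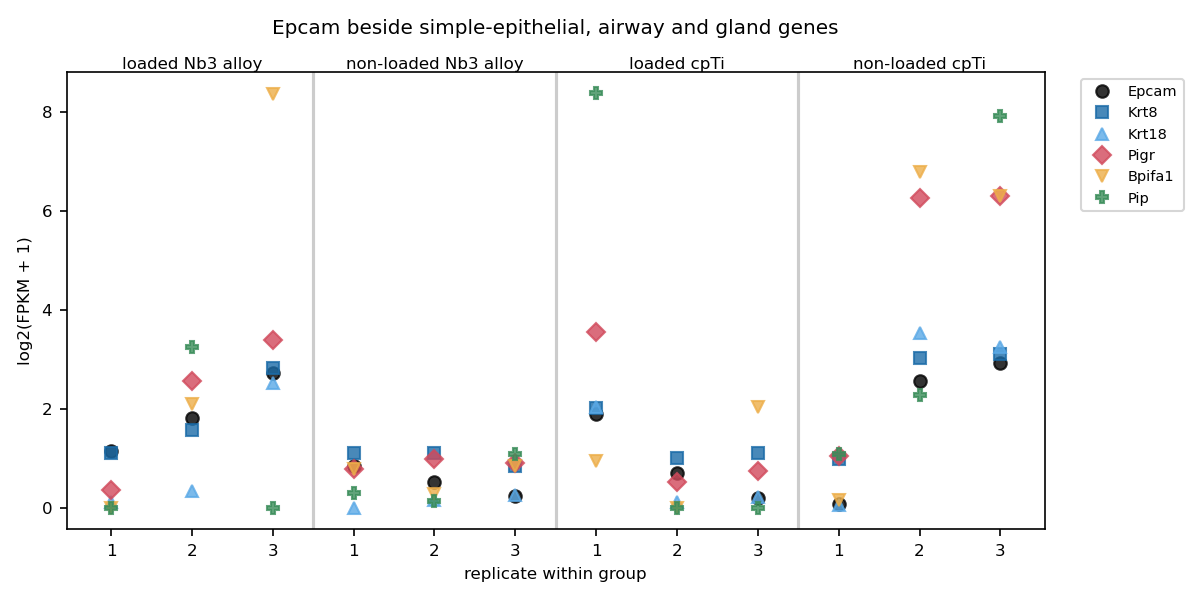
Epcam beside Krt8, Krt18, Pigr, Bpifa1 and Pip on a log2(FPKM + 1) scale, 1 column per sample in its group, 1 symbol per gene. Epcam, Krt8, Krt18 and Pigr are all highest in the same 4 samples: non-loaded cpTi replicates 2 and 3, loaded Nb3 alloy replicate 3 and loaded cpTi replicate 1.

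Epcam shared its high samples with genes of simple epithelium. Its 4 highest samples were non-loaded cpTi replicates 3 and 2, loaded Nb3 alloy replicate 3 and loaded cpTi replicate 1, as the plot of Epcam beside simple-epithelial genes shows. Exactly those 4 samples were also the 4 highest for 10 of 85 other epithelial genes with a read (11.8%), and for 34 of the 15268 tested genes (0.223%), Epcam included. The sets are unlike, since the 85 include genes below the filter and the 15268 do not. Of the 10, Cldn3, Cldn8, Grhl2 and Esrp1 did not pass the filter. This comparison was chosen after the values were seen. Among the 10 are Krt8 and Krt18, the keratin pair of simple epithelium, the tight junction genes Cldn3, Cldn7 and Cldn8, and Grhl2, a regulator of epithelial identity. Krt8 ranged from 0.806 FPKM in the lowest sample to 7.61 FPKM in non-loaded cpTi replicate 3. Pigr, the receptor that carries IgA across mucosal epithelium, reached 75.5 and 78.2 FPKM in non-loaded cpTi replicates 2 and 3. Markers of airway and gland epithelium were high in some of the same samples. The summed level of the airway list was 385 FPKM in loaded Nb3 alloy replicate 3, 129 and 96.4 FPKM in non-loaded cpTi replicates 2 and 3, and 7.38 to 32.4 FPKM in the other 9. Most of these 3 sums was Bpifa1, a secreted protein of nasal and airway epithelium. It stood at 328 FPKM in loaded Nb3 alloy replicate 3, and at 110 and 78.3 FPKM in non-loaded cpTi replicates 2 and 3. Tppp3 of the same list was highest in loaded Nb3 alloy replicate 2 (17.2 FPKM), and Ccdc39 stayed at 3.39 to 5.35 FPKM in all 12 samples. Of the 11 airway genes, 6 were highest in loaded Nb3 alloy replicate 3, 3 in its replicate 2, 1 in its replicate 1 and 1 in non-loaded cpTi replicate 2. Pip, a salivary and lacrimal secretory protein, stood at 334 FPKM in loaded cpTi replicate 1 and 240 FPKM in non-loaded cpTi replicate 3. Pip made up almost all of the salivary list. Of its 7 other genes, Aqp5, a water channel of gland and airway epithelium, reached 9.62 FPKM, Bpifa2f, Smr3a and Smr3b were listed at 0 in all 12 samples, and the rest were at or below 1.01 FPKM. The part of such tissue in the Epcam values was not tested. By the least RMS difference of centred log2(FPKM + 1) over the 12 samples, the genes nearest to Epcam were Krt8 (0.345), Gpx2 (0.437), Creb3l4 (0.448), Elf3 (0.453) and Cxcl17 (0.481), a profile added after the values were seen.

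The same measure was applied to the mean profile of Fdcsp, Odam and Amtn and to that of Krt5 and Krt17. Nearest to the first were Stmn2 (0.250), Ca4 (0.318), Hcar2 (0.348), Cxcl3 (0.387) and Sctr (0.404). Nearest to the keratins were Clec4e (0.401), Hcar2 (0.407), Fabp3 (0.411), Il1rn (0.428) and Ccl4 (0.447). Both profiles have their highest value in loaded Nb3 alloy replicate 2. No epithelial gene of the lists was among the 5 nearest to either, but only genes that passed the filter were searched. Krt6a, Krt13, Krt15 and Sprr1a, also highest in that replicate, did not pass it and could not appear.

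Around the 7 genes, 104 other epithelial genes in 8 lists were followed, of which 91 have a row and 38 passed the filter. The lists were chosen with earlier results of these data known, so their p-values are descriptive and not independent support. Among hemidesmosome and basement membrane genes, which hold junctional and basal cells to their lamina, 6 of 8 tested were called higher under loading with the alloy and none lower. Of all tested genes, 20.7% were called higher and 25.2% lower in this comparison. Lama3 and Lamb3 reached 1 FPKM only in the loaded alloy samples, so they could only be tested because they were high there. Without them 4 of 6 rose, against 20.2% of all tested genes left by the same rule. Cd151, a tetraspanin partner of the laminin-binding integrins, stood at 97.3, 133 and 104 FPKM in loaded alloy and at 32.6 to 45.6 FPKM in non-loaded alloy. Its difference was 1.51 (log2, SE 0.16, limma adjusted p = 2.89e-05). Itgb4, the integrin subunit of hemidesmosomes, stood at 31.6 ± 13.3 FPKM against 4.68 ± 1.74 FPKM (SD, n = 3; difference 2.48, SE 0.56, limma adjusted p = 0.00432). Lama3 and Lamb3, 2 chains of laminin-332, stood at 1.01 to 2.99 and 1.07 to 1.53 FPKM in loaded alloy and at 0.295 to 0.455 and 0.262 to 0.509 FPKM in non-loaded alloy, given with no test. Itga6, the partner of Itgb4, changed by 0.08 (limma adjusted p = 0.806), and its direction reversed with scaling by total reads (-0.09). Col17a1, also on this list, did not rise, at a mean of 1.06 FPKM in loaded alloy and 1.08 FPKM in non-loaded alloy (difference -0.03, limma adjusted p = 0.897). Itgb4 was also 18.4 ± 13.2 FPKM in non-loaded cpTi and 9.53 ± 5.93 FPKM in loaded cpTi. The other 2 were Dst (1.05) and Plec (0.72), which link keratin filaments to the hemidesmosome. Dst was not called without non-loaded alloy replicate 3 (0.91). Plec was not called without loaded alloy replicate 2 (0.54) or 3 (0.74), nor without non-loaded alloy replicate 2 (0.51) or 3 (0.77), nor with scaling by total reads (0.54), no filter or the compared groups only (0.72). Fibroblast genes moved the same way: 6 of 6 rose, beside the same 20.7% of all tested genes. Their summed level was 2104 to 3069 FPKM in loaded alloy, 245 to 407 FPKM in non-loaded alloy and 323 to 1000 FPKM in the cpTi groups. The part of fibroblasts in these list changes was not tested. Itgb4, Col17a1, Lama3, Lamb3, Dst, Pkp1, Tgm1, S100a14, Krt4, Krt6a and Sprr1a were chosen after their values were seen.

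In the other lists, the stratified and simple keratins gave no call among 6 tested genes, and Krt8 stood at 0.81 (limma adjusted p = 0.273). Of the junction genes, Pkp1, a desmosome plaque protein of stratified epithelium, stood at 3.46 ± 2.43 FPKM against 0.249 ± 0.0330; it reached 1 FPKM in no other group and is given with no test. The desmosomal cadherin Dsg3 fell (difference -1.27, limma adjusted p = 0.0201), and Jup, the plaque protein shared by desmosomes and adherens junctions, stood at 0.20 (limma adjusted p = 0.213). Dsg3 was not called without loaded alloy replicate 1 (-1.06), without replicate 3 (-1.03) or without non-loaded alloy replicate 3 (-1.03), nor with the compared groups only (-1.27). Among squamous differentiation genes, Ecm1, a secreted matrix protein of skin and bone, and Tgm1, the crosslinker of the squamous envelope, rose by 2.44 and 1.60 (limma adjusted p = 0.00128 and 0.000884). Ecm1 stood at 29.7 ± 8.56 FPKM against 4.76 ± 2.13 FPKM, and Tgm1 at 4.83 ± 2.00 FPKM against 0.838 ± 0.0671 FPKM. S100a14, a calcium-binding protein of epithelia, was 1.502 higher. It reached 1 FPKM only in loaded alloy replicates 2 and 3 and loaded cpTi replicate 2. It thus passed the filter only because it was high in loaded alloy, and is given with no test. S100a14 still counts among the called list genes, but was not called without non-loaded alloy replicate 1 (1.43) or 3 (1.52). Among epithelial regulators, Klf5 fell from 7.89 ± 2.14 to 2.04 ± 0.680 FPKM (difference -1.55, limma adjusted p = 0.000275). In the defence list, Slpi, a protease inhibitor of mucosal surfaces, rose by 7.61 (limma adjusted p = 0.000108) and Lcn2, an iron-withholding protein also made by neutrophils, fell by 2.11 (limma adjusted p = 0.00629).

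Over the 38 tested genes, 12 were higher and 3 lower under loading with the alloy, which is 31.6% and 7.89% of them. The share of all tested genes was 20.7% higher and 25.2% lower. The median of the 38 was 0.68 and that of all genes -0.02. Leaving out Pkp1, Lama3 and Lamb3, which reached 1 FPKM only in the loaded alloy group, 9 of 35 were higher and 3 lower (25.7% and 8.57%). Over all tested genes, 99 left out by the same rule, these shares were 20.2% and 25.3%. Without loaded alloy replicate 2 the count was 7 higher and 4 lower, and without replicate 3 it was 7 and 2. Against loaded cpTi, 9 were higher and 2 lower, where 33.6% of all genes were called (14.7% higher and 18.9% lower); by the same rule it was 6 and 2 of 35. That comparison shares the loaded alloy samples with the one above. Under loading beside cpTi and between the alloy and cpTi without loading, limma called 0 of the 38, with 1 and 5 at an unadjusted p under 0.05 and 0 by limma-voom. For the interaction of loading and material, 7 were higher and 1 lower (6 and 1 of 35 by the same rule), where 20.2% of all tested genes were called (8.42% higher and 11.8% lower).

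**Figure D4:**
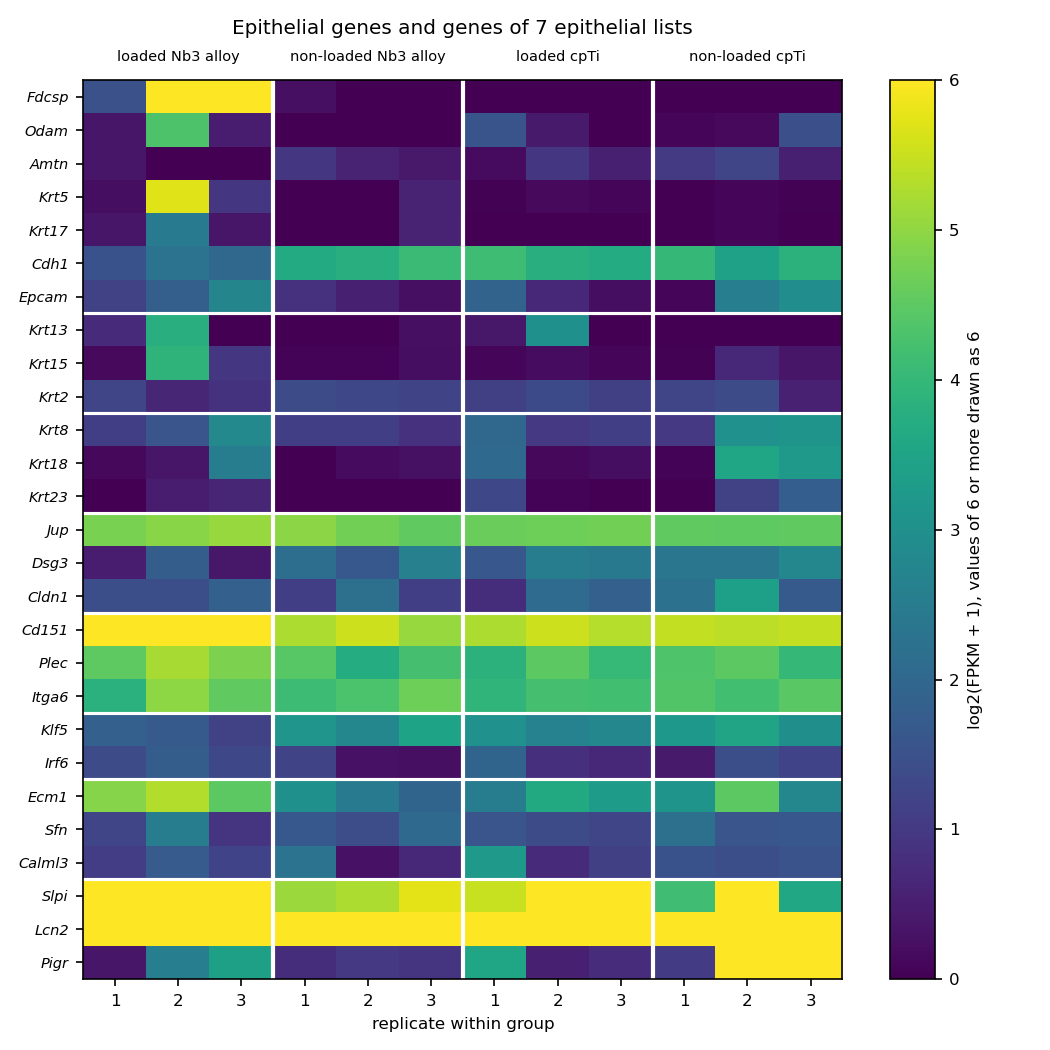
The 7 genes (top block) and the genes with the highest mean FPKM in each of 7 epithelial lists (blocks below, 3 genes each, and 2 for the regulators), as log2(FPKM + 1) per sample with values of 6 or more drawn as 6. Columns are the 12 samples by group. Krt13 and Krt15 share the bright loaded Nb3 alloy replicate 2 column of Krt5, Cd151 is brightest in the 3 loaded Nb3 alloy samples, and Krt8, Krt18 and Pigr share the samples of Epcam.

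Several squamous genes outside the filter followed Krt5 into the same sample. Krt6a, a keratin of activated and oral epithelium, stood at 7.76 FPKM in loaded Nb3 alloy replicate 2, at 0.206 FPKM in replicate 3 and at 0 in the other 10. Sprr1a, a cornified envelope precursor, stood at 6.74 FPKM there and at 0 in the other 11. Krt13, a keratin of the upper layers of moist oral epithelium, stood at 12.6 FPKM in that sample and at 7.0 FPKM in loaded cpTi replicate 2. Krt4, its partner, was instead highest in loaded cpTi replicate 2 (7.69 FPKM). Of the 85 other epithelial genes with a read, 38 had their highest value in loaded Nb3 alloy replicate 2 (44.7%), against 16.6% of the 25414 genes with a read in the table. This sample, which also carried the Krt5, Krt17 and Odam reads, had the most reads on genes (22308428) and the highest mitochondrial share, 24.3% against 11.97% and 11.3% in replicates 1 and 3. The part of depth and RNA makeup in these values was not tested. Ivl, Crnn, Csta and Klk4 were listed at 0 in all 12 samples, and the enamel matrix genes stayed at or below 0.25 FPKM. Skeletal muscle genes were also highest in this sample: Acta1, the muscle actin, stood at 74.8, 328 and 0 FPKM in loaded alloy replicates 1 to 3, and their summed level at 159, 731 and 6.07 FPKM against 9.41 to 34.4 FPKM elsewhere. Cd207, the marker of Langerhans cells of stratified epithelium, stood at 0 to 0.43 FPKM. The part of muscle or gum tissue in these values was not tested.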

How the data were processed

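RNA of 12 samples was measured. Per the file headers, the authors deposited FPKM for each gene beside its length and place. Tools in the submitters' processing notes, listed without roles, are HISAT2 2.0.5, DESeq2 1.20.0, featureCounts 1.5.0-p3, fastp and CASAVA 1.8. Build, annotation and use of strand: not given in the sources used here. FPKM multiplied by length, and divided by a worth of 1 read fitted for each sample (55.4 to 74.4), gave whole reads within 0.01 read. These reads served depth and limma-voom. The depth behind the deposited FPKM was not the number of reads on genes. In loaded Nb3 alloy replicate 2 it was 18057356 against 22308428 reads, the widest gap of the 12 samples.

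Genes at 1 FPKM or more in at least 3 samples were tested (15268). The limma package (3.58.1, R 4.3.3) fitted log2(FPKM + 1) in all 12 samples by group, leaving 8 residual degrees of freedom, with moderation that was trended and robust, so differences understate the change of low genes. Calls needed a Benjamini-Hochberg adjusted p under 0.05. The fit was tested on simulated data. Means ± SD and motif searches used Python 3.11.15. The members and lists were chosen with earlier results of these data known. The genes named were the 8 members, the 3 highest genes by mean FPKM in each list, and the 5 genes nearest to each of 2 profiles; others are marked as chosen after their values were seen. Some listed genes count in the totals but are not reported here by name. Alternatives were other pseudocounts, filters, scalings, limma-voom, a replicate block, the compared groups only and leaving out each sample. Same-numbered samples did not deviate together, as the closing section gives.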

Additional observations from a re-analysis of the deposited data

Results flagged for a closer look

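For 6 genes of the epithelial lists, the loading effect differed between the materials by the limma interaction test with Benjamini-Hochberg adjustment. The difference (loading effect beside the Nb3 alloy minus that beside cpTi, log2) was 3.34 for Itgb4 (limma adjusted p = 0.0149) and 1.57 for Cd151 (0.000904). It was -1.14 for Klf5 (limma adjusted p = 0.0283), 1.24 for Tgm1 (0.0485), 2.74 for Ecm1 (0.0132) and 5.05 for Slpi (0.0226). Of the 38 tested list genes, 7 were called higher and 1 lower for this interaction (21.1%), close to the 20.2% of all tested genes. The 6 genes were listed here because they were called, so their number is no result about the lists. The lists were chosen with earlier results of these data known, and Itgb4 and Tgm1 were named after their values were seen. Between 4 and 12 list genes were called when single samples were left out.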

How the results depend on the processing

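Of 470 values of 26 list genes under the alternatives, 434 kept direction and call, 23 lost the call, 2 gained it and 11 reversed; the cause was not tested. The count of called epithelial genes was 15 for loading beside the alloy and 9 to 15 when single samples were left out. For the alloy against cpTi under loading it was 11, with 7 after scaling by total reads, 7 with the compared groups only and 6 to 12 without single samples. For the interaction it was 8, with 5 by limma-voom and 4 to 12 without single samples. Odam beside cpTi reversed by limma-voom (-0.16; leave-one-out range -0.16 to 0.42). Cdh1 crossed zero in the leave-one-out ranges, -0.045 to 0.24 for loading beside cpTi and -0.083 to 0.20 for the alloy against cpTi without loading. Under loading beside the alloy, scaling by total reads reversed Cldn1 (-0.023) and Itga6 (-0.091), with leave-one-out ranges of -0.090 to 0.46 and -0.18 to 0.39; those of Calml3 and Sfn were -0.14 to 0.86 and -0.62 to 0.19. Total-read scaling moved the median of all genes to -0.17. Same-numbered samples correlated by -0.252 to 0.115 over 18 pairs, 1 of them over 0.1, and 0 of 12 samples correlated best with their own number. With the replicate block, 15 epithelial genes were called for loading beside the alloy, 12 higher and 3 lower, and 0 members in the 2 comparisons without the loaded alloy. Depth limits Amtn, Krt17 and the genes at a few reads.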

Other observations

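Outside the loaded Nb3 alloy group, Odam had reads in 5 samples. It stood at 1.92 FPKM in loaded cpTi replicate 1 and 1.77 FPKM in non-loaded cpTi replicate 3, the 2 samples where Pip was highest (334 and 240 FPKM). Its other values were 0.343 FPKM in loaded cpTi replicate 2, where Pip was 0, and 0.0503 and 0.118 FPKM in non-loaded cpTi replicates 1 and 2, where Pip was 1.14 and 3.87 FPKM. A long non-coding RNA inside the same stretch of chromosome 14, ENSRNOG00000069616, stood at 310 and 306 FPKM in those samples, at 7.34 FPKM in loaded Nb3 alloy replicate 2 and at 6.61 FPKM in non-loaded cpTi replicate 2. Csn3 stood at 1.72 and 1.28 FPKM in the same 2 samples and at 0 elsewhere. Other neighbours differed: AABR07014573.2 stood at 58.9 and 57.6 FPKM and Cabs1 at 10.1 and 7.60 FPKM in non-loaded cpTi replicates 2 and 3. In loaded cpTi replicate 1 they stood at 0.265 and 0 FPKM. Most other genes of that stretch were near silent: of 22 rows besides Fdcsp, Odam and Amtn, 18 had a mean under 0.1 FPKM and 10 had no read. These genes were chosen after their values were seen.

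Genes nearest to Fdcsp alone, a profile also added after the values were seen, were Cxcl2 (RMS difference 0.795), Arg1, Acod1, Ccl3 and Mmp3, which are known from inflamed tissue and macrophages. Genes nearest to Cdh1 alone were Susd1 (0.202), Iqgap2 (0.210), Iqgap3 (0.211), Nsd2 (0.215) and Cenpu (0.219).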
